A study of Sus scrofa with 6 samples.

Results

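In whole pig embryos, 395 strand positions of CpG cytosines showed a mixture of 2 bases in at least 1 control embryo. They were chosen from the reads of the opposite strand. There a cytosine pairs with G, and a copy of the chromosome that carries T in its place gives A. A position was taken where at least 10 opposite-strand reads carried G or A and the share of A (the A share) was 20 to 80% in at least 1 control, both limits included. The tables list 28232 positions, of which 23937 had such 10 reads in at least 1 control. The 395 positions lie in 394 CpGs, with 189 on the plus and 206 on the minus strand. The A shares of the controls chose these positions, so they are given below as a description and without a test.

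The samples were 3 controls and 3 parthenotes, sequenced genome-wide after bisulfite treatment. All were whole embryos at embryonic day 21 of the strain Landrace x Yorkshire x Duroc (LYD). The controls are labelled as untreated, and the labels do not say how they were conceived. The parthenotes came from electrically stimulated oocytes and were transferred to the oviducts of 2 LYD surrogate gilts. They carry maternal chromosomes only, and the labels do not give their ploidy. The tables cover an interval of 2.1 Mb on chromosome 9 (73250031 to 75349903, Sscrofa11.1) around the paternally expressed gene PEG10 and its neighbour SGCE.

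The mammalian CpG is a frequent site of mutation, because a methylated cytosine that loses its amino group becomes thymine. Such a change turns CpG into TpG on the strand that mutated and into CpA on the other. The variant copy then has no CpG, and the cytosine left on the other strand is no longer a usual substrate of the maintenance methyltransferase DNMT1, which copies methylation at CpG. In bisulfite data a T from such a variant looks like a T from an unmethylated cytosine, and only the opposite strand, where G and A are not altered by bisulfite, tells them apart. An embryo that carries both bases can be read as mixed, but a mixed reading alone does not show that it carries both. A genome whose copies are all alike, or a haploid genome, gives a single base at every position, and these cannot be told apart from base shares.

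The median number of opposite-strand G-or-A reads at the 395 positions was 15 to 16 per embryo, against 13 to 14 over all positions. At positions outside the set that were mixed in no embryo, 0.108 to 0.139% of the opposite-strand reads carried A in each embryo. Values just inside the limits were A shares of 20% in all controls and of 80%, 72.7% and 80% in controls 1, 2 and 3. The values just outside were 18.8%, 19.2% and 18.2% at the lower limit and 81.0%, 81.8% and 83.3% at the upper. These values rest on 10 to 26 reads, where 1 read moves the share by several points.

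Control 1 held most of the mixed positions. It was mixed at 295 of them, control 2 at 98 and control 3 at 114. As a share of all positions with 10 reads this was 1.47% in control 1 (95% Wilson interval 1.31 to 1.65%), 0.490% in control 2 (0.402 to 0.597%) and 0.559% in control 3 (0.466 to 0.671%). Intervals cover counting error only. Of the 395 positions, 303 were mixed in 1 control, 72 in 2 and 20 in all 3. At 171 positions control 1 was mixed while controls 2 and 3 carried G in every read. The median A share of the mixed positions was 50% in control 1, 45.6% in control 2 and 44.4% in control 3.

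The positions were spread over the whole interval, with 8 to 31 in each of 21 consecutive bins (20 of 100 kb and a last one slightly shorter). The median distance between neighbouring CpGs of the set was 2974 bp, and 19 of 393 such distances were at most 100 bp. The longest stretch without one ran for 64054 bp, from 74867696 in PPP1R9A to 74931750. Per position with 10 reads in every control, the densest bin was 75150031 to 75250030, with 31 positions of the set, or 51.2 per 1000. It takes in part of ASB4, whose protein joins ankyrin repeats to a SOCS box, and PDK4, a kinase that restrains pyruvate dehydrogenase. The sparsest was 74850031 to 74950030, with 10 positions, or 10.9 per 1000. Both rates count every position of the set in the bin, although only 266 of the 395 had 10 reads in all 3 controls. They are therefore raised, and cannot be set beside the rates per 1000 by region and gene below. The controls differed along the interval. Control 1 had mixed positions in every bin, while controls 2 and 3 each had none in 3 bins.

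**Figure D1:**
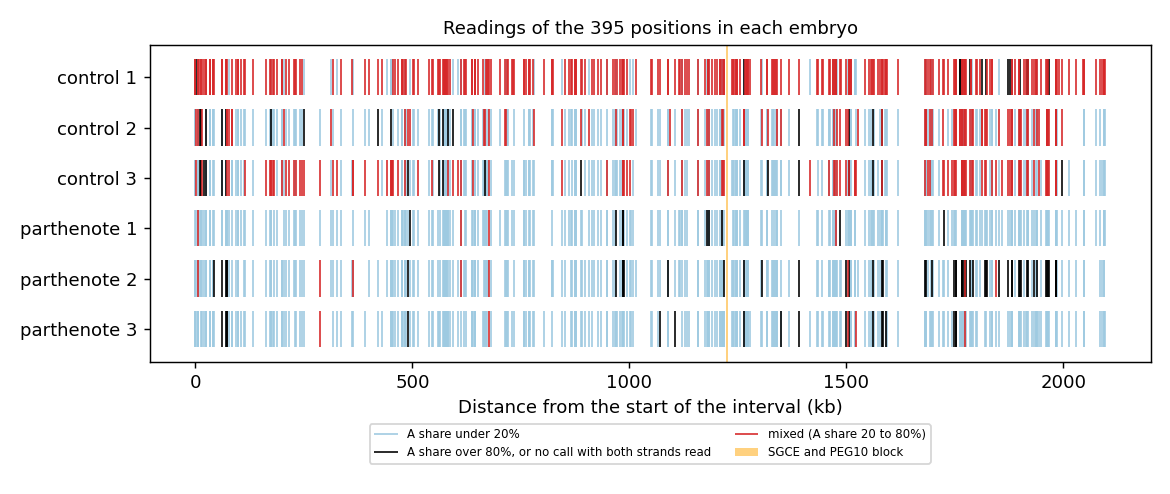
Reading of each of the 395 positions (vertical ticks) in each embryo (rows) against the distance from the start of the interval in kb. Red ticks are mixed readings, blue ticks A shares under 20%, and black ticks A shares over 80% or no call with both strands read. Red dominates control 1 (295 positions) and is rare in the parthenotes (4, 8 and 5). The orange stripe marks the methylation block of SGCE and PEG10, which holds no tick.

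By the annotation in the tables, 208 of the positions were intronic (52.7%, against 52.5% of the readable positions) and 173 intergenic (43.8%, against 39.0%). A readable position is one with 10 G-or-A reads in at least 1 control. Exons held 3 of 945 readable positions (3.17 per 1000) and 5′ UTRs 1 of 292 (3.42 per 1000), against 16.5 per 1000 over all readable positions. The 3′ UTRs held 7 of 498 (14.1 per 1000), stretches just downstream of genes 3 (29.7 per 1000), and stretches just upstream 0 of 204. The CpGs of the set stood further apart from other CpGs. Their median distance to the nearest CpG was 58 bp, against 31 bp for readable CpGs, and 14.5% of them had 5 or more other CpGs within 100 bp, against 27.6%. These are descriptions, since positions of 1 gene or haplotype are not independent.

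Among genes, PPP1R9A, which encodes the actin-binding neurabin 1, held 58 positions (16.4 per 1000 readable) and ASB4 45 (20.3 per 1000). GNGT1, a G protein gamma subunit gene, held 37 and CALCR, the calcitonin receptor gene, 22. SGCE, which encodes epsilon-sarcoglycan, held 18. In the paraoxonase family PON3 held 12, PON2 7 and PON1 6. CASD1, a sialic acid O-acetyltransferase gene, held 7 (8.23 per 1000), and COL1A2, a type I collagen gene, 4 (9.37 per 1000). PEG10 held 2 of 418 readable positions (4.78 per 1000), 1 in its 3′ UTR and 1 just downstream. BET1, GNG11 and PDK4 held 1 each, and 1 lay in a stretch annotated to both GNGT1 and TFPI2. Between genes, the stretch from BET1 to COL1A2 held 73, the stretch from PEG10 to PPP1R9A 32 and that from COL1A2 to CASD1 15. The controls shared these genes unevenly. In GNGT1 control 3 was mixed at 27 positions, control 1 at 25 and control 2 at 2. Between PEG10 and PPP1R9A control 1 was mixed at 25, control 2 at 7 and control 3 at 0. The 3 exonic positions were 73292091 in CALCR, 74432929 in SGCE and 75016177 in PON3.

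No position of the set lay in the block at the start sites of SGCE and PEG10, a differentially methylated region known for methylation of the maternal copy. Of the 250 positions listed there, 116 were readable and 50 had 10 reads in every embryo. No embryo was mixed at any of them, and none lacked a call where both strands were read. The nearest positions of the set lay 4738 bp before the block, at 74468762, and 9255 bp after it, at 74485754. No base difference was therefore read inside the block that could tell its parental copies apart.

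Parthenotes were almost never mixed at these positions. Of the positions with 10 reads, parthenote 1 was mixed at 4 of 323 (1.24%, 95% Wilson interval 0.483 to 3.14%), parthenote 2 at 8 of 289 (2.77%, 1.41 to 5.37%) and parthenote 3 at 5 of 335 (1.49%, 0.639 to 3.45%). Every read carried G at 304, 265 and 304 positions. The A share was above 0 and under 20% at 15, 13 and 22 positions, and over 80% at 0, 3 and 4. Of the 231 positions with 10 reads in all 3 parthenotes, 223 (96.5%, 93.3 to 98.2%) had no mixed parthenote, and at 198 all 3 carried G in every read. Over all positions of the interval with 10 reads, whether or not in the set, 12, 10 and 8 were mixed in the 3 parthenotes, or 0.0589%, 0.0481% and 0.0371%. All 3 shares were below those of the 3 controls (0.490 to 1.47%).

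**Figure D2:**
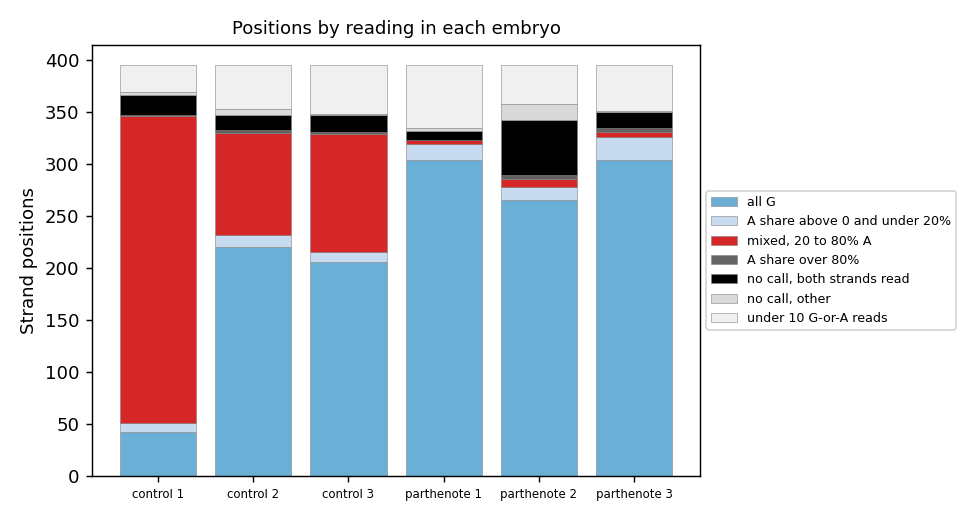
Number of the 395 positions by reading in each embryo (stacked bars, counts from 0). Mixed readings number 295, 98 and 114 in the controls and 4, 8 and 5 in the parthenotes, while all-G readings number 304, 265 and 304 in the parthenotes.

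Since the set was chosen on controls, parthenotes were also set beside controls that had no part in the choice. At the positions mixed in control 1, control 2 was mixed at 25 of 250 (10.0%) and control 3 at 51 of 245 (20.8%). Parthenotes 1 to 3 were mixed at 2 of 251 (0.797%), 2 of 234 (0.855%) and 2 of 253 (0.791%). At the positions mixed in control 2, controls 1 and 3 were mixed at 25 of 58 (43.1%) and 56 of 81 (69.1%). The parthenotes were mixed there at 2 of 72 (2.78%), 4 of 42 (9.52%) and 3 of 78 (3.85%). These counts leave out positions without a call where both strands were read. For control 2 as the chooser these numbered 19 and 4 in controls 1 and 3 and 8, 40 and 7 in parthenotes 1 to 3. At the positions mixed in control 3, controls 1 and 2 were mixed at 51 of 84 (60.7%) and 56 of 94 (59.6%). The parthenotes were mixed there at 2 of 93 (2.15%), 6 of 68 (8.82%) and 4 of 98 (4.08%). With each control as the chooser, both other controls were above all 3 parthenotes. Whether the control embryos are littermates is not stated in the labels, and relatives share variants more often than unrelated animals.

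A position that carries A in every read is absent from these tables. No listed cytosine had 0 G reads, and the highest A share listed was 96.3%. At such a position the authors' corrected total would be 0, but the sources used here do not say why it is not listed. Such positions were therefore looked for among cytosines without a call. The other cytosine of the CpG, its partner on the opposite strand, had to have at least 10 C-or-T reads and 5 G-or-A reads. That these uncalled positions carry only A is inferred and was not tested. This criterion was chosen after seeing the data. In parthenotes 1 to 3 it was met at 9, 53 and 15 positions of the set, and in controls 1 to 3 at 19, 14 and 16.

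The partner cytosines of these uncalled positions were almost free of methylation. In parthenote 2 they carried C in 6 of 946 reads (0.634%, 95% Wilson interval 0.291 to 1.38%), and in parthenotes 1 and 3 in 0 of 148 and 0 of 264 (upper limits 2.53% and 1.43%). Controls 1 to 3 had 0 of 302, 0 of 216 and 3 of 297 (1.01%). At listed positions with an A share over 80% the mean partner level was also low, from 0 to 8.33% in the 5 embryos that had any. These readings and the uncalled positions are together called A-type below. The name covers readings with some G reads, such as control 3 at 73918004, where the A share was 83.3% of 12 reads, the cytosine was at 36.4% and the partner at 16.7%.

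Parthenotes differed from each other in which base they carried. Of 287 positions read in all 3 parthenotes, with A-type readings counted, all 3 carried G or nearly so at 219. At 60 some carried G and others were A-type, with none mixed, and 8 had a mixed parthenote. An A share under 20% in 1 parthenote and an A-type reading in another were counted as opposite. Parthenotes 1 and 2 were opposite at 57 of 305 positions, parthenotes 1 and 3 at 26 of 305 and parthenotes 2 and 3 at 40 of 314. The A-type readings of parthenote 2 lay together. The last 400 kb of the interval (74949924 to 75349903) is a stretch chosen after the values were seen. There parthenote 2 was A-type at 33 of 71 positions of the set (46.5%), against 23 of 271 before it (8.49%). Over all positions read, in the set or not, parthenote 2 was A-type at 47 of 3466 in this stretch and 39 of 17424 before it. At positions of the set in this stretch, parthenotes 1 and 3 were A-type at 1 of 79 and 3 of 78. In ASB4 alone, parthenote 2 had 18 uncalled positions of this kind, control 1 had 10 and the other 4 embryos 0. In the same stretch control 1 was A-type at 17 of 82 and mixed at 61, and controls 2 and 3 were mixed at 43 of 78 and 42 of 76.

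Stretches with no mixed reading were longer in the parthenotes, counted over every position with 10 reads, in the set or not. The longest in parthenote 1 ran for 520.4 kb (74829500 to 75349903), with 4885 positions read, 95 of them in the set. In parthenote 2 it was 489 kb (74265343 to 74754545), with 5480 positions read and 81 in the set, and in parthenote 3 it was 531 kb (73925523 to 74456653), with 5348 read and 70 in the set. The longest such stretch was 70.6 kb in control 1, with 577 positions read, 169.6 kb in control 2, with 1243, and 199.6 kb in control 3, with 2507. The groups did not overlap in this length, which follows from the number of mixed positions and was not tested.

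The mixed readings of parthenotes were few and mostly near the lower limit. At 10 positions of the set a parthenote was mixed, which gave 17 readings with a median A share of 25.0%, of which 3 were at 35% or more. The 507 readings of the controls had a median of 47.1%, and 410 (80.9%) were at 35% or more. These control readings define the set and are a description. Another 13 positions were mixed in a parthenote and in no control. The highest A share among these was 45.5% in parthenote 1, at 74264937 between COL1A2 and CASD1 (11 reads).

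**Figure D3:**
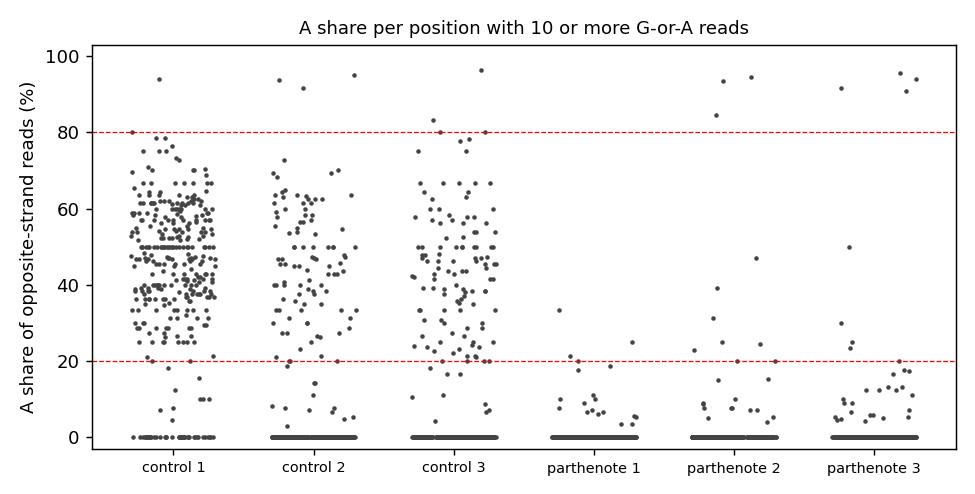
A share of the opposite-strand reads, in percent, at each of the 395 positions with 10 or more G-or-A reads, by embryo (points, spread sideways for display); dashed lines mark 20% and 80%. The control points between the lines have medians of 44.4 to 50%, while the few parthenote points there lie at 20 to 50%. In controls 2 and 3, 220 of 333 and 206 of 331 points lie at 0%.

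The position mixed in all 6 embryos was 73925522, on the plus strand between BET1, a vesicle transport gene, and COL1A2. Its A shares were 31.4%, 26.3% and 21.1% in controls 1 to 3 and 33.3%, 31.4% and 25.0% in parthenotes 1 to 3, at 32 to 38 G-or-A reads. The groups overlapped, and the depth was above the median of 15 to 16. Another deep position, 73861723 in the same intergenic stretch, had 54 to 78 reads, with A shares of 12.5%, 11% and 24.4% in the controls and 21.4%, 23.0% and 17.7% in the parthenotes. A further one, 73255854 between VPS50 and CALCR, had 28 to 45 reads and shares of 8.82 to 27.5%. Whether depth or the mapping of reads plays a part at these 3 positions, which were chosen after their values were seen, was not tested. At 75022298, between PON3 and PON2, 5 of 6 embryos were mixed, with 39.1% in parthenote 2 and 5.56% in parthenote 1.

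In the set, 74754546 in an intron of PPP1R9A was the position with the highest A shares in parthenotes. It was at 47.1% in parthenote 2 (17 reads) and 50% in parthenote 3 (10 reads). Parthenote 1 and controls 1 and 3 carried G in every read there, and control 2 was at 21.1%. The partner cytosine was methylated at 52.9% and 50% in the 2 mixed parthenotes, against 100% in parthenote 1. At 74726942, also in PPP1R9A, control 1 was at 70.8% and parthenote 1 at 20%, with parthenote 3 just outside at 17.4%.

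The methylation level of a mixed cytosine was much lower in the raw counts. In each embryo the positions of the set where it was mixed were compared with those where it carried G in every read (at least 10 C-or-T reads). The mean raw level of the cytosine itself was 39.6%, 48.3% and 45.3% at mixed positions of controls 1 to 3, and 74.6%, 86.0% and 85.1% at all-G positions. Parthenotes had 66.5%, 53.6% and 71.4% at mixed positions, from only 2, 5 and 5 of them, against 86.7%, 85.4% and 85.4%. The difference was -29.7 percentage points ± 10.3 (SD, n = 6) and negative in 6 of 6 embryos. The two-sided exact sign-flip permutation p was 0.0312, the smallest that 6 embryos allow, and 0.0938 after Benjamini-Hochberg adjustment over 6 comparisons. An adjusted p under 0.05 would need at least 4 of the 6 comparisons at that smallest p. In raw counts a T of the variant copy counts as unmethylated, so the choice of mixed positions lowers this level by its arithmetic. The direction and its p are therefore a description of the rule and not a finding.

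The difference was smaller in the controls with the authors' corrected total, which scales the C-or-T count by the opposite-strand share of G. With it the mixed cytosines were at 67.4%, 77.4% and 73.8% in controls 1 to 3. These are 80, 26 and 33 positions with a corrected total of 10 or more, against 257, 78 and 84 in the raw comparison. High A shares dropped out most, since at 60 to 80% A control 1 kept 2 positions against 52. How much of the change comes from this was not tested. The parthenotes had 1, 4 and 4 such positions. The mean difference over the 6 embryos was -7.72 points ± 9.27 (SD, n = 6), negative in 5 of 6 (exact permutation p = 0.0938, adjusted 0.188). Other choices moved it from 1.32 points ± 16.1 (SD, n = 4) with at least 20 reads to -15.7 points ± 4.10 (SD, n = 3) against the same position in other embryos, where the 3 controls gave -20.3, -12.6 and -14.0 points. For single cytosines the C count exceeded the corrected total at 71 of 295, 40 of 98 and 26 of 114 mixed positions of controls 1 to 3, where the deposited fraction is held at 1.

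In the controls the partner cytosine on the other strand was about as low as the mixed cytosine in raw counts, and it was not corrected. In the parthenotes, on few positions, the partner was lower than the mixed cytosine. Its level at mixed positions was 39.7%, 48.0% and 47.3% in controls 1 to 3 and 51.4%, 44.8% and 57.3% in parthenotes 1 to 3 (4, 7 and 5 positions). At all-G positions it was 74.8%, 86.2%, 84.1%, 85%, 84.4% and 87.2% in the same order. The difference was -35.5 points ± 3.5 (SD, n = 6) and negative in 6 of 6 embryos (two-sided exact sign-flip permutation p = 0.0312, adjusted 0.0938). It lay between -39.6 and -29.9 points in every embryo. On a variant copy the partner is not in a CpG, so this direction was not independent of the choice of mixed positions. Its p is a description as well. Opposite the partner every read carried G at 250 of 257, 77 of 78 and 80 of 85 mixed positions of the controls with 10 such reads, so the authors' total for it stays nearly as counted. The partner's mean level with the authors' corrected total was 39.8%, 48.0% and 47.5% in controls 1 to 3. With both strands of the CpG summed, the level at mixed CpGs was 39.4%, 48.3% and 46.1% from raw totals and 49.0%, 58.1% and 55.2% from corrected totals.

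**Figure D4:**
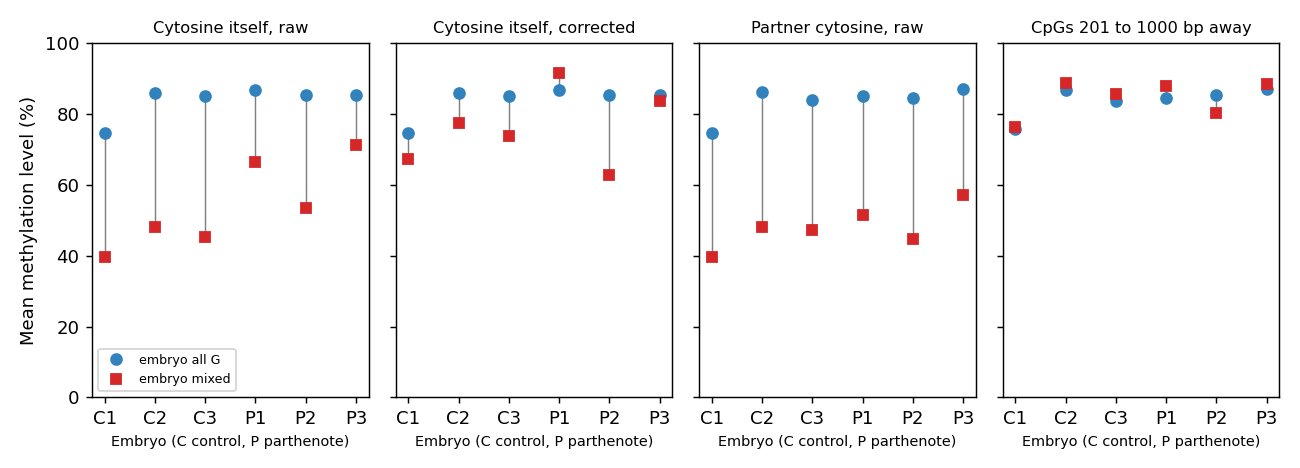
Mean methylation level in percent per embryo (C1 to C3 controls, P1 to P3 parthenotes) at positions where the embryo carried G in every read (blue circles) or was mixed (red squares), for the cytosine itself raw and corrected, its partner, and CpGs more than 200 and up to 1000 bp away. The partner points are 29.9 to 39.6 points apart in every embryo, while the distant CpGs differ by -5.05 to 3.40 points. The parthenote squares rest on 1 to 8 positions each.

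The partner level followed the A share. In control 1 it was 49.2% ± 16.8 (SD over 82 positions) at A shares of 20 to 40%, 39.2% ± 11.4 (147 positions) at 40 to 60% and 28.2% ± 9.43 (61 positions) at 60 to 80%. In control 2 the means were 61.8%, 44.3% and 33.4% (32, 45 and 19 positions), and in control 3 they were 61.3%, 42.1% and 26.0% (45, 51 and 17). Across positions Pearson's r was -0.60 in control 1 (290 positions), -0.72 in control 2 (96) and -0.77 in control 3 (113). The A share and the partner level come from the same opposite-strand reads, and positions are not independent replicates. The raw level of the cytosine itself, read from the other strand, fell from 52.3% to 39.2% over the same bins in control 3 but was 42.3%, 37.2% and 42.1% in control 1.

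**Figure D5:**
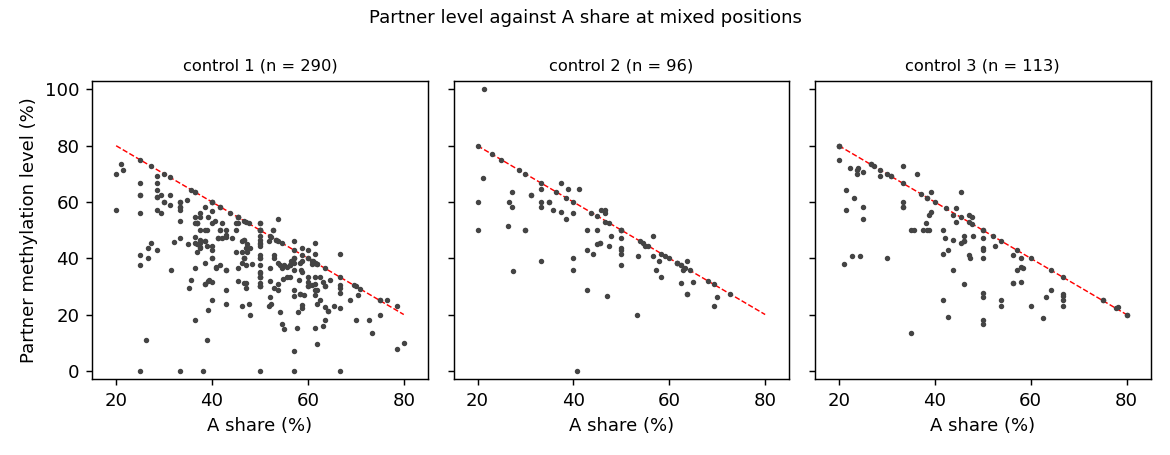
Methylation level of the partner cytosine in percent against the A share in percent, for mixed positions of each control with 10 or more partner reads (290, 96 and 113 points). The dashed line is 100% minus the A share. Above it lie 13, 9 and 8 points, of which 3, 2 and 3 by more than 5 percentage points.

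The partner level was mostly at or below the share of reads that carried G. It was above 100% minus the A share at 13 of 290, 9 of 96 and 8 of 113 mixed positions of controls 1 to 3. The excess was more than 5 percentage points at 3, 2 and 3 of these, and at most 8.33, 21.4 and 9.09 points. When the partner's total was scaled by the share of G at the mixed position, a calculation added after seeing the data, the pooled partner level was 75.9%, 87.1% and 82.4% in controls 1 to 3. The pooled level at all-G positions was 73.9%, 86.5% and 84.1%. In the parthenotes the scaled level was 60.7%, 54.9% and 76.9%, against 84.8%, 85% and 86.9% at all-G positions, on 4, 7 and 5 positions. Those few hold the deep positions described above.

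Of the positions where all parthenotes carried G in every read, 3 are given here, chosen for the most reads. At 74722740 in an intron of PPP1R9A, the A share was 64.5% in control 1 (31 reads) and 0 in the other 5 embryos (23 to 40 reads). The partner was methylated at 32.3% in control 1 and at 91.7 to 100% in the others. At 74867697, in another intron of this gene, control 1 had an A share of 52.0% and a partner level of 32.0%, against 80.8 to 100% in the other 5 embryos. At 75334361 in ASB4 control 1 had 35.7% A and a partner level of 32.1%. The other embryos there ranged from 37.0% in control 3 to 80% in parthenote 3 with no A read, so the lowest of them lay near control 1.

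At other positions some parthenotes carried G while others had no call, and the partner levels differed with the reading. At 74756239 in PPP1R9A, control 1 had an A share of 37.5% and a partner level of 54.8%. Parthenote 1 carried G in all 26 reads, with the partner at 96.0%. Controls 2 and 3 and parthenotes 2 and 3 had no call, and their partners were at 0% in 22 to 28 reads each. At 75166702 in ASB4, controls 2 and 3 had A shares of 45.7% and 44.4% and partner levels of 57.1% and 57.7%. Parthenotes 1 and 3 carried G in every read there, with partners at 88.9% and 92.6%, while control 1 and parthenote 2 had no call and partners at 0% in 22 and 24 reads. At 74238429, between COL1A2 and CASD1, parthenote 2 alone had no call and its partner was at 0% in 18 reads, against 79.2% and 89.5% in parthenotes 1 and 3.

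Neighbouring CpGs were compared in the same way, and their differences were smaller than those of the partner. With 6 embryos or fewer these tests cannot show that neighbours do not differ. CpGs with a position mixed in any embryo were left out of the neighbours. Within 1 to 50 bp, where 174 of the 395 positions had a neighbour, the level was 78.6%, 89.1% and 87.5% beside mixed positions and 77.8%, 88.3% and 87.5% beside all-G positions of controls 1 to 3. The difference was 2.59 points ± 2.95 (SD, n = 5, exact permutation p = 0.125, adjusted 0.188), since parthenote 1 had no mixed position with such a neighbour. At 51 to 200 bp it was -1.35 points ± 7.32 (SD, n = 6, exact permutation p = 0.75, adjusted 0.75), with 2, 6 and 4 mixed positions in the parthenotes. Beyond 200 and up to 1000 bp it was 0.69 points ± 2.97 (SD, n = 6, exact permutation p = 0.562, adjusted 0.675). The control differences alone were 0.51 ± 0.45, 1.19 ± 3.11 and 1.40 ± 0.86 points (SD, n = 3) in the 3 ranges. These are small beside the -36.7 ± 1.57 points (SD, n = 3) of the partner in the controls.

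Set against other embryos at the same position, the neighbours of mixed positions in control 1 were lower by 8.8 to 9.4 points (-8.80, -8.85 and -9.42 in the 3 ranges). In control 2 these differences were 2.79, 2.69 and 2.66 points and in control 3 -0.81, -1.74 and 0.12. Control 1 also had the lowest level over the interval, 75.2% against 83.2 to 85.6% in the other 5 embryos, and its all-G positions were at 74.6%. Leaving out the set moved these levels by less than 1 point. Without the CpGs of the set, the interval level rose by 0.97 points to 76.1% in control 1, by 0.42 to 85.8% in control 2 and by 0.44 to 83.6% in control 3. In parthenotes 1 to 3 it rose by 0.02, 0.40 and 0.13 points. The difference of parthenotes from controls was 3.01 points over 12359 CpGs with 10 reads in every embryo and 2.58 points over the 11997 outside the set.

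At the CpGs of the set themselves the level in the raw counts was 42.9%, 71.4% and 68.5% in controls 1 to 3 and 82.4%, 70.8% and 81.3% in parthenotes 1 to 3 (362 CpGs). Parthenote 2, which had the most A-type positions, lay between controls 3 and 2, and the groups overlapped. The median difference of parthenotes from controls was 16.0 points at these CpGs, against 2.00 over all tested CpGs. Of the 362, 330 were higher in parthenotes (91.2%, against 66.0% of all tested CpGs). The choice of mixed controls lowers the control level by its arithmetic, so this direction is a description of the rule and not a finding.

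In single-CpG tests, edgeR called 10 of the 362 CpGs of the set (2.76%), all higher in parthenotes, where the background was 0.429% of 12359 CpGs (53 calls). Nothing is read from this share, because the rule fixed the bases of the control reads. With the authors' corrected totals 9 of 357 were called (2.52%), against 54 of 12334 over all tested CpGs (0.438%). Of the 15 calls outside the SGCE and PEG10 block, 10 held a position of the set, and 5 did not. At those 5 all 3 controls had no call on a strand, with both strands read, so they were A-type rather than mixed. At 3 of the 5 a parthenote had no call as well, and its level was 0%.

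The choice of mixed controls lowers the control level at the called CpGs of the set by its arithmetic. Their adjusted p-values, here and in the next paragraph, are therefore descriptions of the rule and not findings. The CpG of the set with the smallest adjusted p was 73820305, between BET1 and COL1A2. Its level was 41.4%, 0% and 0% in controls 1 to 3 and 100%, 96.8% and 96.8% in parthenotes 1 to 3 (edgeR adjusted p = 0.000219). On its minus strand control 1 was mixed (57.1% A), controls 2 and 3 were A-type, and the parthenotes carried G in every read. In the 3′ UTR of PDK4, the CpG at 75247157 was at 46.2%, 43.6% and 0% in the controls and 89.3%, 93.3% and 93.6% in the parthenotes (edgeR adjusted p = 0.00329). The A shares of controls 1 to 3 there were 38.5%, 62.5% and 96.3%, and those of all parthenotes 0. The levels ran opposite to the A shares, but a T of the variant copy counts as unmethylated, so this direction is not independent of them.

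The other called CpGs of the set were 73812088, 74139003 and 74053699 between BET1 and COL1A2, 73275193 and 73260444 between VPS50 and CALCR, and 73499418, 73669884 and 73424732 in introns of GNGT1. Not every control was low at them. At 73499418 control 1 carried G in every read and was at 88.9%, against 4.17% and 26.7% in controls 2 and 3. At 74053699 all 3 controls were near the middle, at 48.1%, 50% and 54.5%, against 97.4 to 100% in parthenotes, with G-or-A reads under 10 on that strand in controls 2 and 3. Its adjusted p was 0.00253 with raw and 0.0297 with corrected totals (edgeR). At 73260444 the adjusted p was 0.0383 with raw and 0.137 with corrected totals, so that call was lost.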

How the data were processed

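The authors deposited, per the file headers, a table per embryo with the counts of C and of C-or-T reads at each CpG cytosine and the opposite-strand counts of G and of G-or-A reads. The expected count in the deposited tables is the C-or-T count times the share of G (recomputed to within 0.005 reads). The methylation fraction that the authors deposited is the C count over that total, at most 1, with its confidence limits. The submitters' processing notes name BSMAP 2.87 and the build Sscrofa11.1; read filters are not given in the sources used here. No genome sequence was used. Totals were 380163 to 406443 C-or-T reads per embryo.

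Positions, lists and tests were chosen with earlier results of these data known. Levels used at least 10 C-or-T reads per embryo. CpG counts (strands summed, 10 reads in every embryo) were tested with R 4.3.3 and edgeR 4.0.16 (quasi-likelihood, methylated against unmethylated counts, each embryo with its own intercept) and adjusted by Benjamini-Hochberg over all CpGs. Corrected counts were rounded for that fit. Nothing in the labels says that embryos come from separate litters, so p-values measure the spread between these embryos. Named positions were, by rule, up to 3 per parthenote pattern with the most reads, all genes with positions, the block, the called CpGs and the longest stretches (recounted over all positions after the data were seen). The planned pattern of 0 G reads does not exist in the tables and was replaced by uncalled positions. Alternatives were other read minimums, other A share limits, leaving out embryos, limma 3.58.1 and a replicate block. Calculations were tested on simulated data and ran in Python 3.11.15 with numpy 2.4.6, pandas 2.3.3, scipy 1.17.1 and matplotlib 3.10.9.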

Additional observations from a re-analysis of the deposited data

How the results depend on the processing

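Of 139 alternative values, 104 kept their direction or stayed near the main value; the scaled partner total was chosen after seeing the data. With 20 G-or-A reads the set had 140 positions, and 156 to 368 with each control left out (156 without control 1). Mixed shares in parthenotes 1, 2 and 3 were 0.356%, 0.82% and 0.347% at A shares of 30 to 70%, and 4.44%, 6.27% and 5.05% at 10 to 90%. With 20 reads parthenote 1 had 7.55% (4 of 53). Without each control the ranges were 0.993 to 2.5%, 1.49 to 9.09% and 0.958 to 3.88%, all highest without control 1. The share of positions without a mixed parthenote was 98.4% at 30 to 70%, 89.9% at 10 to 90% and 75.0% of 16 positions with 20 reads; with each embryo left out it was 88.9 to 97.7%. For positions chosen by controls 1, 2 and 3, the mean parthenote share was 0.481%, 0 and 1.14% at 30 to 70%, against 0.814%, 5.38% and 5.02%, and 3.06%, 14.0% and 17.0% with 20 reads. Control 3's positions were then mixed at 62.4% in the other controls. The causes were not tested.

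The partner difference was -36.6 to -34.7 points with each embryo left out and -37.4 against the same position in other embryos. After scaling by the share of G it was -10.3 points ± 14.1 (SD, n = 6). Controls 1 to 3 gave -1.28, 0.17 and 0.75 points, and parthenotes 1 to 3 gave -16.9, -35.4 and -9.15 on 4 positions each. The raw and corrected differences of the cytosine itself were -32.9 to -27.7 and -10.3 to -4.77 points with an embryo left out. The corrected one was 1.32 points with 20 reads (4 embryos), -2.99 with 5 reads, -13.1 at A shares of 30 to 70% (5 embryos) and -15.7 against the same position in other embryos (3 controls). Neighbour differences changed sign, to -1.71 points at 1 to 50 bp against the same position in other embryos, and to 3.52 points at 51 to 200 bp at A shares of 30 to 70%. With an embryo left out they were 1.55 to 3.24, -2.91 to 1.19 and 0.15 to 1.84 points.

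With the replicate block edgeR called 80 CpGs, 25 of them in the set, against 53 and 10. These 25 were 6.91% of the tested CpGs of the set, against 0.647% of all tested CpGs. The numbers do not pair the embryos: the deviations of same-numbered embryos correlated at 0.088, 0.072 and -0.089. With an embryo left out, edgeR called 25 to 61 CpGs, 34 without control 3, 29 without parthenote 2 and 25 without parthenote 3. In the set it called 6 to 20. Without control 1 it called 19 of 363 (5.23%, against 0.487% of all tested CpGs). Without control 2 it called 20 of 368 (5.43%, against 0.48%), and without parthenote 3 it called 6 of 365 (1.64%, against 0.201%). With 20 reads in every embryo it called 3 of 226 in the set (1.33%), against 37 of 8063 over all tested CpGs (0.459%). Depth limits the set to positions with 10 opposite-strand reads.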
